A study of Mus musculus with 10 samples.

Results

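The 32 genes of cholesterol and fatty acid synthesis described here were taken by name out of 31053 mouse genes counted in single-cell RNA-seq of breast tumors. They comprised 17 enzymes of the mevalonate and sterol pathway, 5 regulators, 8 genes of fatty acid synthesis and use, and 2 sterol transport genes. E0771 cells, a C57BL/6 mouse mammary carcinoma line, were placed in a mammary fat pad of female littermates aged 16 weeks, and the tumors were taken at day 21. WT mice were compared with EC-AGO1-KO mice, which carry AGO1 flox/flox alleles and a VE-Cadherin-Cre transgene on the C57BL/6 background, so that Ago1 is deleted from host endothelium while the injected tumor cells keep the gene. The 5 WT libraries held 1 tumor each. The 5 KO libraries held 7 tumors, because KO 2-3 and KO 5-6 each combined 2 small tumors. Batch 1 had 1 library of each genotype and batch 2 had 4 of each.

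Libraries held 8323896 to 10591577 UMIs, where 1 UMI stands for 1 captured transcript, and 65298 barcodes passed as cells. Batch 1 cells had a median of 4049 UMIs (WT) and 3862 UMIs (KO), against 595 to 1142 UMIs in batch 2, and Actb, the gene of beta-actin, took 1.99% and 2.27% of UMIs in batch 1 against 8.77% to 16.97% in batch 2. Levels are therefore given as CPM, the share of the UMIs of a class that a gene takes, with Actb left out of the total, on the usual CPM scale. Since 3' counting gives a transcript 1 UMI whatever its length, CPM was not divided by gene length. No pair of libraries shared more than 0.503% of the cell barcodes of the smaller library. From marker genes, 56032 cells were called tumor-like, 4157 immune-like and 1065 stromal-like (fibroblast-like, pericyte-like and endothelial-like). Each tumor-like cluster had 9 of the 10 tumor-like markers raised over immune clusters. Clusters with immune markers and tumor-level Pvt1, a tumor-like marker (3521 cells), were left out of the classes. The fibroblast-like, pericyte-like, endothelial-like and dendritic-like clusters that were kept still had 6 to 8 of the 10 tumor-like markers raised over immune clusters, and the part of tumor RNA in their levels was not tested. The targeted gene could not be checked in endothelial-like cells, where Ago1 had 0 UMIs in every library (7 to 36 cells). In tumor-like cells it measured 5.15 to 6.46 CPM in WT and 4.14 to 8.21 CPM in KO.

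Cholesterol is built from acetyl-CoA through mevalonate, farnesyl diphosphate, squalene and lanosterol, and fatty acids are built from the same acetyl-CoA through malonyl-CoA. Both branches are switched on by SREBP transcription factors, which are held in the endoplasmic reticulum by INSIG proteins when sterols are plentiful and are escorted by SCAP to the Golgi for activation when sterols are scarce. Tumor cells commonly make their own sterols and fatty acids, while macrophages take up and export cholesterol under the control of LXR receptors.

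Promoter windows reaching from 250 bases before to 50 bases after the transcription start were held by RefSeq (GRCm38.p6) for 25 of the 32 genes. They were searched on both strands for TCACNCCAC, a form of the sterol regulatory element, for CCAAT, the box bound by NF-Y, a frequent partner of SREBP, and for CACGTG, an E-box. CCAAT was in 37.4% of 32851 windows of all genes and in 69.7% of the 33 windows of members. By gene, 14 of 14 sterol enzymes, 4 of 5 regulators and 4 of 6 fatty acid genes had it in at least 1 window. TCACNCCAC was in 1.24% of all windows and in 3.03% of member windows, in 1 member, Hmgcs1. CACGTG was in 7.15% of all windows and in 18.2% of member windows, in 5 of 25 members. Some members had several windows, and no share by gene is given for all genes. A match describes the letters only. Printed here are the windows of Hmgcs1, the sterol enzyme with the highest level in tumor-like cells, of Insig1, the member with the highest level, and of Fasn, the member with the largest difference between tumor-like and immune-like cells. Capitals mark the matches on either strand, so that ATTGG is CCAAT read on the opposite strand.
Hmgcs1 (chr13:119690101-119690400, plus strand): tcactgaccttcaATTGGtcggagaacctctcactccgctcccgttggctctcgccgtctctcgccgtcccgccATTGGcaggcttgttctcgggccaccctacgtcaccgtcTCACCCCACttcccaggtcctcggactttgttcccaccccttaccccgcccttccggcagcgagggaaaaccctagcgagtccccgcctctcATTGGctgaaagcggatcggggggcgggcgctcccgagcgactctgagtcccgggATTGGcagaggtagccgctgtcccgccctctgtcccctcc
Insig1 (chr5:28071162-28071461, plus strand): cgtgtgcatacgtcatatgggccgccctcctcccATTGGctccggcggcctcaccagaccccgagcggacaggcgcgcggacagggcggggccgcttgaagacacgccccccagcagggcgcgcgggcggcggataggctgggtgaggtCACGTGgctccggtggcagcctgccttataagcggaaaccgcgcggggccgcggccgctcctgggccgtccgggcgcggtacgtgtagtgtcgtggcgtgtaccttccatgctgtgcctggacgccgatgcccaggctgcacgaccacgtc
Fasn (chr11:120824498-120824797, minus strand): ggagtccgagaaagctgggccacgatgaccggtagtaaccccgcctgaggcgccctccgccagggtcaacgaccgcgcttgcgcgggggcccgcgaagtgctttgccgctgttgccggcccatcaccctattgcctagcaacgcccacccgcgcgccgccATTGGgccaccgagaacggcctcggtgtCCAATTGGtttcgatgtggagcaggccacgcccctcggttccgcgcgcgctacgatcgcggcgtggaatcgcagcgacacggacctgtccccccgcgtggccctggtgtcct
The TCACCCCAC match in Hmgcs1 began 137 bases before the start, and CCAAT matches flanked it at 237, 176 and 45 bases before. A further CCAAT match lay 10 bases after the start. In Insig1 the E-box began 101 bases before the start and the CCAAT match 216 bases before. In Fasn a CCAAT match began 90 bases before the start, and 2 further matches, at 62 and 59 bases before, overlapped in the run CCAATTGG.

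Every member was detected in tumor-like cells of every library, and all 32 lay above the median gene there (1.03 CPM over 26894 genes with a UMI). Among the enzymes of the early steps of the sterol pathway, Hmgcs1, which makes HMG-CoA, had the highest level at 245 ± 95.4 CPM (mean ± SD, n = 10). The kinases Mvk and Pmvk, which phosphorylate mevalonate and phosphomevalonate, were at 8.17 ± 6.53 and 60.9 ± 11.3 CPM, and Mvd, which forms isopentenyl diphosphate, was at 11.7 ± 6.34 CPM. Idi1, the isomerase of that product, and Fdps, which makes farnesyl diphosphate, were at 39.7 ± 20.4 and 38.2 ± 47.1 CPM. The SD of Fdps was above its mean because the batch 1 libraries lay far above the rest.

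In the later steps, Fdft1 and Sqle, which make squalene and its epoxide, were at 37.4 ± 8.61 and 59.4 ± 8.30 CPM, and Lss, which closes the ring to lanosterol, was at 10.7 ± 2.84 CPM. Of the enzymes that turn lanosterol into cholesterol, Sc5d (103 ± 24.4 CPM), the sterol C5 desaturase, and Msmo1 (82.3 ± 17.1 CPM), the C4 methyl oxidase, led. Cyp51, the C14 demethylase, was at 28.8 ± 11.7 CPM, Hsd17b7, a 3-ketosteroid reductase, at 22.5 ± 3.65 CPM and Nsdhl, the C4 decarboxylase, at 18.0 ± 3.89 CPM. Among these, levels were lowest for Dhcr7, the last reductase (14.9 ± 6.15 CPM), Tm7sf2, the C14 reductase (6.32 ± 1.47 CPM), and Ebp, the sterol isomerase (5.58 ± 5.28 CPM). The order among neighbors such as Pmvk and Sqle, or Fdps and Fdft1, did not exceed the spread between libraries.

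Hmgcs1 stood at 91.5 CPM in the WT library of batch 1 and at 193, 255, 290.4 and 392 CPM in the WT libraries of batch 2. In KO it stood at 101 CPM in batch 1 and at 264, 269.6, 246 and 346 CPM in batch 2. Both batch 1 libraries were below every batch 2 library, and the genotypes overlapped. Sc5d gave 68.3 CPM in WT of batch 1 and 101, 117, 98.1 and 144 CPM in WT of batch 2, against 59.6 CPM in KO of batch 1 and 115, 104, 116 and 110.1 CPM in KO of batch 2. Its libraries were again lower in batch 1 and overlapped between genotypes. Msmo1 was spread less by batch. It measured 84.2, 72.8, 69.8, 72.9 and 122 CPM in WT and 84.6, 66.0, 68.1, 86.0 and 95.8 CPM in KO, batch 1 first, with WT 5 the highest library.

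Of the regulators, Insig1, the sterol-sensing anchor of SCAP, was the most abundant member at 917 ± 489 CPM and ranked 137 among 26894 genes. Srebf2, the SREBP of the sterol branch, followed at 361 ± 127 CPM. Srebf1, whose products drive fatty acid genes, was at 12.7 ± 4.05 CPM, Scap at 12.5 ± 1.65 CPM and Insig2, the second anchor, at 15.2 ± 5.57 CPM. Insig1 measured 178 CPM in WT of batch 1 and 759, 1020, 1735 and 1244 CPM in WT of batch 2. In KO it measured 155 CPM in batch 1 and 1304, 1022, 717 and 1031 CPM in batch 2. Every batch 2 library was above both batch 1 libraries, and within batch 2 the genotypes overlapped.

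In the fatty acid arm, Acaca, the carboxylase that makes malonyl-CoA, was highest at 132 ± 38.9 CPM. It was followed by Scd2 (98.0 ± 29.7 CPM), a stearoyl-CoA desaturase, and Elovl6 (77.4 ± 13.5 CPM), the elongase of palmitate. Acsl3, which activates long-chain fatty acids, was at 51.0 ± 9.67 CPM, Fasn, the fatty acid synthase, at 41.9 ± 11.1 CPM and Scd1, the other desaturase measured, at 27.1 ± 5.46 CPM. Acly and Acss2, which supply acetyl-CoA from citrate and from acetate, were at 23.9 ± 11.3 and 9.41 ± 1.75 CPM. Acaca measured 79.8, 192, 175, 99.2 and 155 CPM in WT and 82.5, 113, 151, 154 and 119 CPM in KO, batch 1 first. Scd2 measured 151, 79.8, 91.9, 64.3 and 103 CPM in WT and 149, 87.0, 82.1, 72.9 and 99.1 CPM in KO. The batches thus lay in opposite order for these members, batch 1 lowest for Acaca and highest for Scd2, and the genotypes overlapped for both. Elovl6 measured 52.8, 93.2, 85.6, 69.3 and 91.1 CPM in WT and 62.6, 76.7, 73.2, 77.7 and 92.2 CPM in KO, with batch 1 lowest. Of the transport genes, Stard4, a carrier of sterol between membranes, was at 10.6 ± 5.17 CPM and Npc1, which moves cholesterol out of lysosomes, at 19.2 ± 4.26 CPM.

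**Figure D1:**
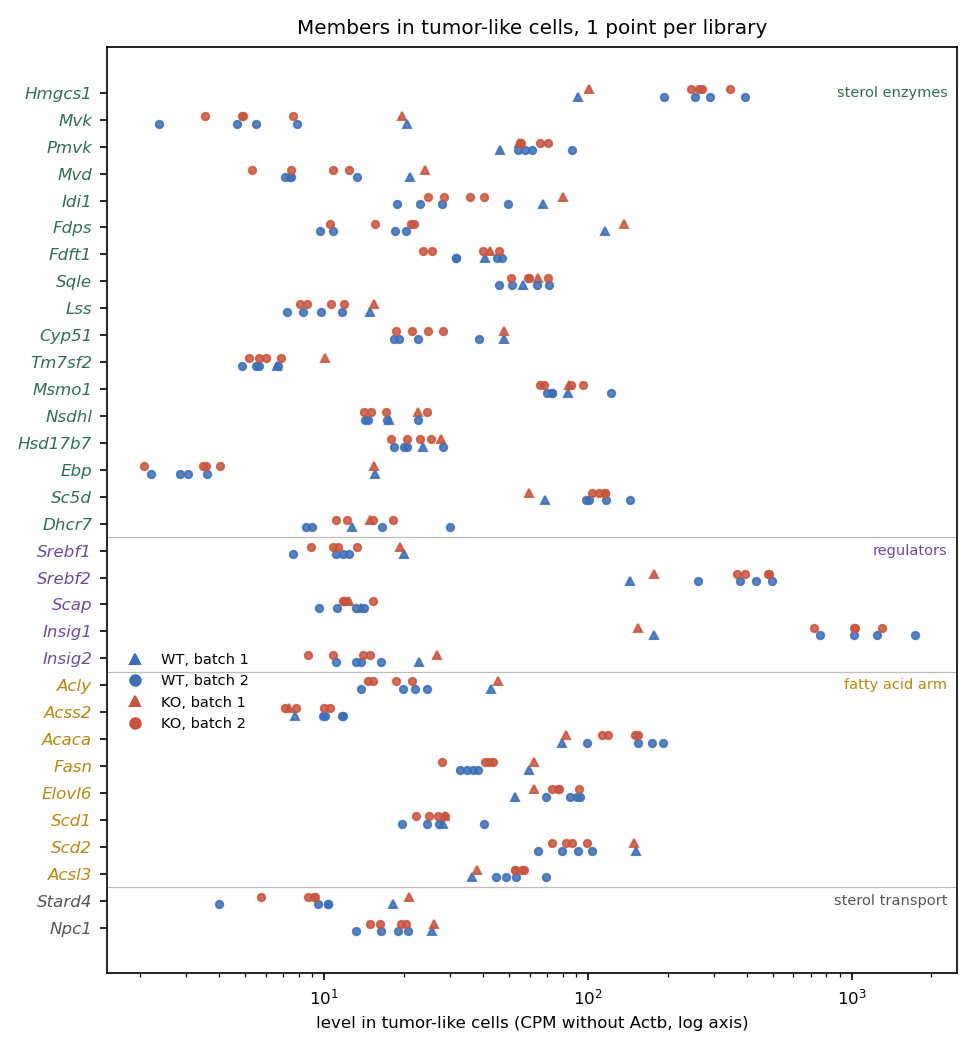
Level of each member in tumor-like cells (CPM without Actb, log axis), with 1 point per library, triangles for batch 1 and circles for batch 2, WT in blue and KO in red, grouped by role. Batch 1 stands apart for many members (Insig1 at 155 and 178 CPM against 717 to 1735 CPM in batch 2), while WT and KO points of batch 2 overlap for every member.

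The sterol and fatty acid arms were compared as sums of CPM over the 17 sterol enzymes and over the 8 fatty acid genes. In tumor-like cells the sterol sum was 791 ± 177 CPM in WT and 794 ± 89.2 CPM in KO (SD, n = 5 each), and the fatty acid sum was 470.5 ± 53.7 CPM in WT and 451 ± 21.6 CPM in KO. By library the sterol sum was 752, 617, 712, 788 and 1086 CPM in WT and 823, 769, 731, 714 and 935 CPM in KO, batch 1 first. The ratio of the sterol to the fatty acid sum was 1.64, 1.24, 1.44, 2.06 and 2.10 in WT and 1.73, 1.83, 1.59, 1.63 and 2.03 in KO. The WT range enclosed the KO range for the ratio, and the sums of the genotypes overlapped in either arm. Immune-like cells had ratios of 1.21 to 2.42 and stromal-like cells of 1.05 to 2.18, so the classes overlapped with tumor-like cells (1.24 to 2.10) in the balance of the arms.

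**Figure D2:**
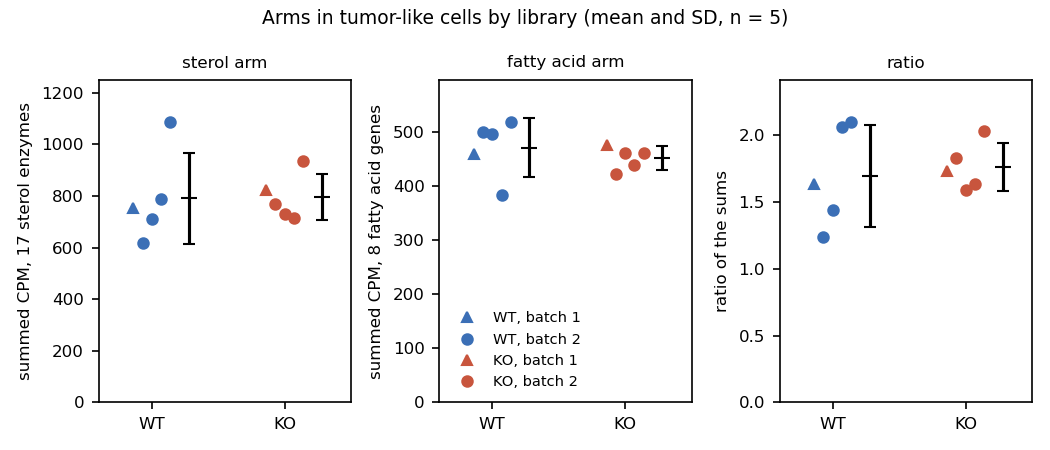
Summed levels of the 17 sterol enzymes and of the 8 fatty acid genes in tumor-like cells (CPM without Actb) and the ratio of the sums, with 1 point per library and the mean and SD of each genotype (n = 5), triangles for batch 1. WT and KO points overlap in each panel, at 617 to 1086 CPM against 714 to 935 CPM for the sterol arm.

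Although the arm sums of the batches overlapped, many members did not. In tumor-like cells 14 of 32 members were higher in both batch 1 libraries than in all batch 2 libraries, and 7 were lower. Among all 11623 genes tested there, 34.6% were higher and 40% lower without overlap, so the members' shares are to be read against a background of batch differences over most genes. Fdps was 7.88-fold higher in batch 1, Ebp 5.01-fold, Mvk 3.89-fold and Mvd 2.54-fold. In batch 2 Insig1 was 6.64-fold higher, Hmgcs1 2.94-fold and Srebf2 2.55-fold. Fdps measured 116 CPM in WT and 137 CPM in KO of batch 1, against 9.60, 10.7, 18.5 and 20.5 CPM in WT and 21.3, 15.5, 10.6 and 21.9 CPM in KO of batch 2. Both genotypes thus showed the same gap between batches. The median share of UMIs from mitochondrial genes was 2.70% (WT) and 2.77% (KO) in batch 1, against 0.16% to 0.61% in batch 2. Sequencing platform, depth per cell, Actb share, mitochondrial share and batch changed together, and their parts in these differences cannot be told apart.

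Tumor-like cells were then compared with immune-like cells of the same libraries, by edgeR's quasi-likelihood test on UMIs summed per library and class with library as a block and Benjamini-Hochberg adjustment over all genes tested. Fasn, Scd2 and Lss had the largest differences, all higher in tumor-like cells, and Npc1 was the member called lower there. Of the 31 members that passed the limit on low counts, 23 were higher at an adjusted p under 0.05, against 39.2% of 10409 genes, and 1 was lower, against 24% of genes. Ebp did not pass. The median log2 difference was 1.28 over the members tested and 0.30 over all genes, and 28 of 31 members lay above the latter. Members were kept out of the genes used for clustering. Since a gene may pass the limit through the tumor-like sums alone, the counts are descriptions.

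In the fatty acid arm 6 of 8 genes were higher. Fasn measured 59.8, 32.7, 34.9, 36.6 and 38.4 CPM in tumor-like cells of WT and 62.4, 43.6, 41.9, 27.97 and 40.7 CPM in those of KO, batch 1 first. In immune-like cells it measured 7.51, 0, 19.7, 0 and 13.7 CPM in WT and 3.19, 0, 5.15, 0 and 0 CPM in KO, from 18 UMIs in all. Each library was higher in tumor-like cells, with a log2 difference of 3.18 ± 0.35 (SE, adjusted p = 2.63e-09). Scd2 measured 10.3, 0, 19.7, 0 and 13.7 CPM in immune-like cells of WT and 20.7, 22.0, 20.6, 7.89 and 24.0 CPM in those of KO, again below the tumor-like level of its own library in 10 of 10 libraries. Its log2 difference was 2.82 ± 0.25 (adjusted p = 1.77e-11). Scd1 (2.57 ± 0.38), Elovl6 (1.72 ± 0.23), Acsl3 (1.45 ± 0.25) and Acaca (0.83 ± 0.18) were also higher. Scd1 and Scd2 are paralogs, and how reads common to both were counted was not given. The suppliers of acetyl-CoA did not pass: Acss2 differed by 0.20 ± 0.38, and Acly by 0.00 ± 0.27, a sign that turned with other scalings (-0.04 with DESeq2 size factors and -0.14 with Actb kept).

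Among sterol enzymes 14 of 16 tested were higher. Lss had the largest difference at 2.79 ± 0.50 (adjusted p = 1.74e-05), although immune-like cells held 6 of its UMIs in all. Its levels in tumor-like cells were 14.9, 7.24, 8.32, 9.73 and 11.7 CPM in WT and 15.5, 11.9, 10.7, 8.08 and 8.62 CPM in KO. In immune-like cells it stood at 0.939 CPM in WT of batch 1, 2.39 CPM in KO of batch 1, 6.87 CPM in WT 5 and 11.01 CPM in KO 1, while the other 6 libraries were at 0. Batch 2 held 2 of these UMIs, so the values of WT 5 and KO 1 rested on single molecules. At such counts a level of 0 does not place a library of batch 2 below its tumor-like level. The further log2 differences were 2.34 ± 0.29 for Sqle, 2.11 ± 0.32 for Fdps, 1.85 ± 0.24 for Msmo1, 1.82 ± 0.22 for Sc5d, 1.81 ± 0.32 for Fdft1 and 1.06 ± 0.16 for Hmgcs1. Cyp51 (0.74 ± 0.30), Mvk (1.03 ± 0.44) and Mvd (1.73 ± 0.51) passed but did not pass without either of the batch 1 libraries. Without WT of batch 1 they stood at 0.44, 0.71 and 1.26, and without KO of batch 1 at 0.54, 0.74 and 1.07. With batch 2 alone none of them passed, at 0.14, 0.22 and 0.26, beside a median of 0.20 over all genes. Mvk also did not pass without any 1 of WT 5, KO 1, KO 4 and KO 5-6 (0.95 to 1.00), and Cyp51 without WT 5 (0.63). Neither Mvk nor Cyp51 passed with DESeq2 (0.75 and 0.56), Actb kept (0.80 and 0.58) or free RNA subtracted (0.77 and 0.45). Nsdhl (1.45 ± 0.35) and Dhcr7 (1.19 ± 0.38) passed, but not with batch 2 alone (1.03 and 1.16). Dhcr7 also did not pass with at least 500 genes per cell (0.72) or with free RNA subtracted (0.86). Pmvk (0.37 ± 0.20) and Tm7sf2 (0.78 ± 0.44) did not pass.

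Insig1 (1.28 ± 0.13) and Srebf2 (0.87 ± 0.14) were the regulators called higher. Insig1 in immune-like cells measured 73.2, 488, 453, 892 and 598 CPM in WT and 62.9, 485, 525.6, 237 and 295 CPM in KO, below its tumor-like level in 10 of 10 libraries. Scap (0.77 ± 0.34), Insig2 (0.63 ± 0.31) and Srebf1 (0.50 ± 0.32) did not pass, although Scap did without KO 2-3 (1.00) or KO 5-6 (0.87). Of the transport genes, Stard4 was higher by 1.11 ± 0.37, and without WT of batch 1 it did not pass (1.05). It also did not pass with batch 2 alone (1.54), at least 500 genes per cell (0.75) or free RNA subtracted (0.93). Against T-like cells alone it did not pass either (0.73). Npc1 in tumor-like cells measured 25.6, 16.4, 19.1, 13.2 and 20.8 CPM in WT and 25.9, 14.95, 16.2, 19.5 and 20.4 CPM in KO. In immune-like cells it measured 44.1, 21.7, 39.4, 0 and 48.1 CPM in WT and 38.2, 33.0, 12.9, 31.5 and 31.9 CPM in KO, higher than in tumor-like cells in all libraries except WT 4 and KO 2-3. Its log2 difference was -0.66 ± 0.23 (adjusted p = 0.015), and without WT of batch 1 it did not pass (-0.59). The call was also lost with batch 2 alone (-0.62), at least 500 genes per cell (-0.66) and no filter on low counts (-0.33).

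Immune-like cells carried free RNA, which in batch 2 held the sterol enzymes at 529 ± 185 CPM (n = 8), above their sum in immune-like cells of 374 ± 55.5 CPM and below that in tumor-like cells of 794 ± 149 CPM. The share of free RNA was estimated at 4.49% to 41.9% of UMIs in immune-like cells, highest in WT 4. With it subtracted, 19 members were higher and 1 lower, and with batch 2 alone 17 were higher and 0 lower. The 10 tumor-like markers summed to 1733 to 11110 CPM in immune-like cells, against 10940 to 22660 CPM in tumor-like cells, with none at 0 over either class. The part of these markers and of free RNA in the difference was not tested.

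**Figure D3:**
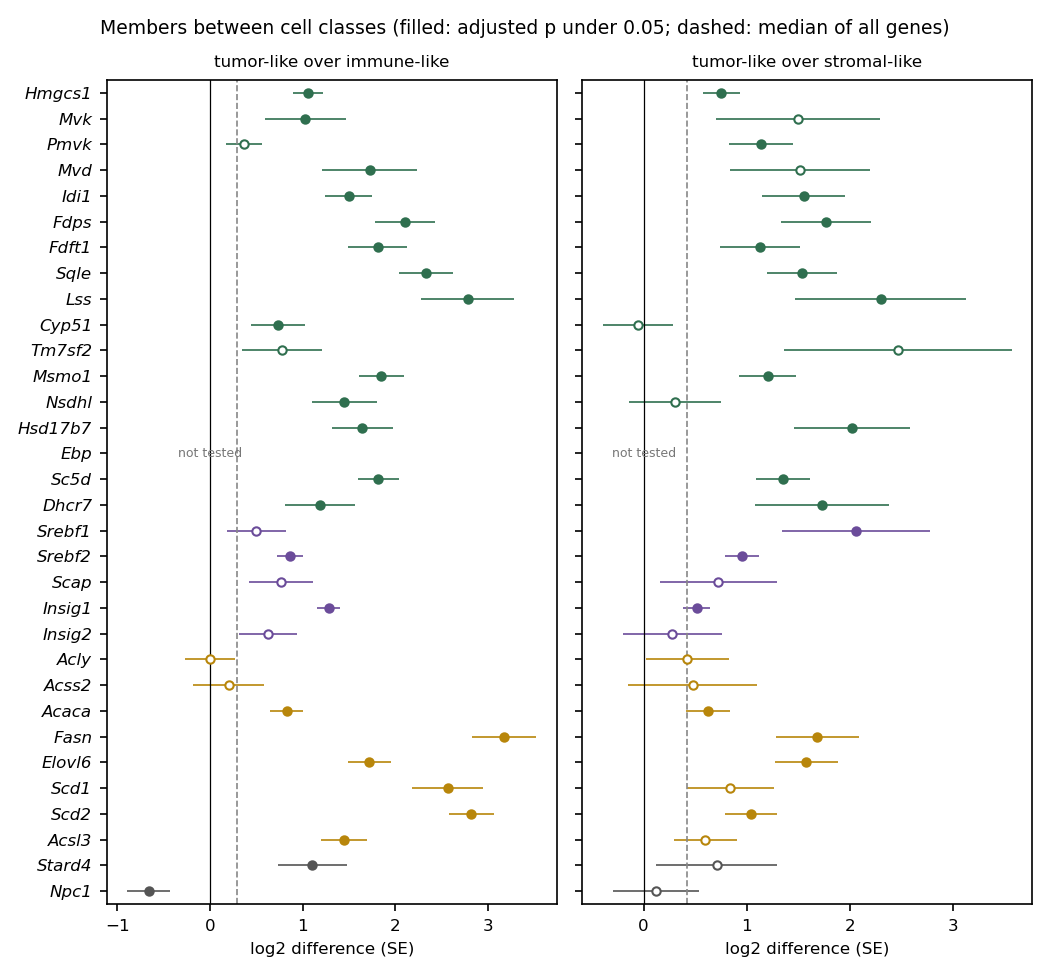
Log2 difference of each member between tumor-like and immune-like cells (left) and between tumor-like and stromal-like cells (right). Standard errors were derived from edgeR's test over 10 libraries. Filled points have an adjusted p under 0.05 and dashed lines mark the median of all genes (0.30 and 0.42). Fasn, Scd2 and Lss lie farthest right on the left panel and Npc1 alone is below 0 with a filled point.

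Against stromal-like cells, 11 of 16 sterol enzymes tested, 3 of 5 regulators, 4 of 8 fatty acid genes and 0 of 2 transport genes were called higher in tumor-like cells. Of 31 members tested 18 were higher (30.1% of 9674 genes) and 0 lower (12% of genes). The median log2 difference was 1.13 over the members, 1.51 over the sterol enzymes, 0.73 over the fatty acid arm and 0.42 over all genes, which became 0.20 with DESeq2 size factors. With that scaling 15 members were higher, and the split of all called genes moved from 2908 higher and 1159 lower to 1805 higher and 1425 lower. Members called above the median of all genes numbered 12 with DESeq2, 13 with batch 2 alone and 16 with free RNA subtracted. The share of free RNA in stromal-like cells was estimated at 2.18% to 29.2% of UMIs. Stromal-like cells had fewer than 20 UMIs in all for 21 of 32 members, so many of these values rest on few molecules. Among the better measured genes, Hmgcs1 differed by 0.75 ± 0.18, Sc5d by 1.35 ± 0.26, Msmo1 by 1.20 ± 0.28 and Srebf2 by 0.95 ± 0.17, all called higher. Insig1 was higher by 0.51 ± 0.13.

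In stromal-like cells Insig1 measured 111, 511, 892, 983 and 929 CPM in WT and 170, 1388, 747, 559 and 854 CPM in KO, batch 1 first. KO 1 and KO of batch 1 were above their tumor-like levels and the other 8 libraries below theirs. Of the fatty acid arm, Fasn (1.68 ± 0.40), Elovl6 (1.58 ± 0.30), Scd2 (1.04 ± 0.25) and Acaca (0.63 ± 0.21) were called higher, and Acsl3, Acly, Acss2 and Scd1 did not pass (0.42 to 0.84). Scd2 measured 37.0, 28.4, 51.0, 95.9 and 46.9 CPM in WT and 170, 52.0, 17.4, 77.6 and 12.7 CPM in KO in stromal-like cells, which in WT 4, KO 4 and KO of batch 1 was above the tumor-like level. Lss and Srebf1 were called with 2 and 3 stromal UMIs. The ratio of their pooled levels, with an exact 95% interval that covers counting error only, was 4.09 (1.13 to 33.9) for Lss and 3.25 (1.11 to 15.8) for Srebf1, whose 3 UMIs all came from KO of batch 1. Lss did not pass without WT of batch 1 (1.94), with DESeq2 (1.45), with batch 2 alone (2.51) or with at least 500 genes per cell (1.67). It also did not pass against fibroblast-like cells alone (2.30) or endothelial-like cells alone (7.73 ± 4.58). Cyp51 (-0.06 ± 0.34), Nsdhl (0.31 ± 0.45), Mvk (1.496 ± 0.79), Mvd (1.52 ± 0.68), Tm7sf2 (2.47 ± 1.10), Npc1 (0.12 ± 0.41) and Stard4 (0.71 ± 0.59) did not pass.

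Across the finer classes of batch 2, the sterol sum ran from tumor-like cells (794 ± 149 CPM, n = 8) through dendritic-like (710 ± 139 CPM, 69 UMIs), fibroblast-like (498 ± 166 CPM), pericyte-like (434 ± 216 CPM), epithelial-like (415 ± 96.7 CPM, n = 6), endothelial-like (358 ± 194 CPM, n = 7) and T-like (346 ± 121 CPM) to myeloid-like cells (280 ± 58.1 CPM). Tumor-like and dendritic-like cells did not differ beyond their spread, and neither did neighbors from fibroblast-like to T-like. In the dendritic-like cluster 7 tumor-like markers were raised over immune clusters and 6 dendritic-like markers over the other clusters. Its sterol sum was below the tumor-like sum of the same library in 9 of 10 libraries. In myeloid-like cells it was at 197 to 361 CPM over all 10 libraries, below each tumor-like sum (617 to 1086 CPM). The fatty acid sum was 459 ± 44.9 CPM in tumor-like, 356 ± 70.6 CPM in fibroblast-like, 336 ± 155 CPM in dendritic-like, 230 ± 54.0 CPM in T-like and 156 ± 86.1 CPM in myeloid-like cells. Tumor-like sums were above those of immune-like cells in 10 of 10 libraries for either arm, by 1.499-fold to 3.30-fold for sterol enzymes and 1.67-fold to 4.14-fold for fatty acid genes. Against stromal-like cells the sterol sum was higher in 10 of 10 libraries (1.47-fold to 2.71-fold) and the fatty acid sum in 9 of 10. CPM is a share of the RNA of a class, so a difference in RNA per cell is not seen in it.

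Further lists of the pathway were read beside the members. Of 13 other sterol and SREBP genes tested between tumor-like and immune-like cells, 6 were higher, beside 39.2% of all genes, and 1, Rnf145, a ubiquitin ligase of sterol sensing, was lower (-0.68 ± 0.21), beside 24% of all genes. The median was 0.55. Sterol efflux, LXR and uptake genes went the other way, with 6 of 11 lower and 2 higher and a median of -0.57. Lower in tumor-like cells were Abca1 (-7.07 ± 0.29), the cholesterol exporter, Cd36 (-6.08 ± 0.28), a fatty acid and lipoprotein receptor, Apoe (-4.46 ± 0.42), an apolipoprotein, Lipa (-1.93 ± 0.24), the lysosomal lipase, Npc2 (-0.60 ± 0.16) and Lrp1 (-0.57 ± 0.23), and higher were Scarb1 (0.95 ± 0.19) and Lpcat3 (0.76 ± 0.29). Of 9 other fatty acid genes, Me1, the NADPH-making malic enzyme (3.02 ± 0.45), Gpam (2.23 ± 0.65) and Elovl1 (1.02 ± 0.31) were higher, and Acsl1 (-1.53 ± 0.24), Elovl5 (-0.60 ± 0.16) and Acsl4 (-0.55 ± 0.16) lower. Against stromal-like cells, 6 of 13, 5 of 11 and 0 of 9 genes of these lists were higher, beside 30.1% of all genes, and 0, 3 and 0 were lower, beside 12% of all genes, the latter being Cd36 (-6.54 ± 0.31), Abca1 (-5.54 ± 0.39) and Lrp1 (-1.22 ± 0.20).

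The question of the study, whether the loss of endothelial Ago1 changes the tumor, was put to the members by comparing WT with KO in tumor-like cells with batch as a covariate. No member was called: 0 of 32 were called by edgeR, as were 0 of 11623 genes (0%), of which 695 had an unadjusted p under 0.05, none of them a member. DESeq2 called 1 gene, no member. Log2 differences of KO over WT ran from -0.30 to 0.18, and the median was -0.03 over the members, -0.002 over the sterol enzymes, -0.10 over the fatty acid arm and 0.004 over all genes. The 95% intervals of the 32 differences reached from -0.82 (Dhcr7) to 0.70 (Fdps), so each interval lay within 2-fold either way.

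The lowest differences were those of Acss2 (-0.30 ± 0.17, adjusted p = 0.83, edgeR), Insig1 (-0.27 ± 0.20) and Acaca (-0.20 ± 0.15). Acss2 measured 7.78, 9.91, 11.8, 10.1 and 11.7 CPM in WT and 7.36, 7.11, 9.99, 10.6 and 7.82 CPM in KO, batch 1 first. KO 1 and KO 5-6 lay below the WT libraries of batch 2, and KO 2-3 and KO 4 among them. With batch 2 alone Insig1 differed by -0.28 ± 0.23 and Acaca by -0.25 ± 0.18.

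The highest differences were those of Fdps (0.18 ± 0.22), Tm7sf2 (0.14 ± 0.19) and Srebf2 (0.12 ± 0.16). Tm7sf2 measured 6.62, 4.88, 5.68, 6.68 and 5.53 CPM in WT and 10.1, 5.65, 6.88, 5.18 and 6.01 CPM in KO. Its KO library of batch 1 was the highest and the other libraries overlapped. Srebf2 measured 144, 261, 375, 499 and 432 CPM in WT and 178, 392, 486, 368 and 480 CPM in KO, and without WT 1 its difference was -0.0007. In batch 2 no member had WT and KO libraries without overlap, against 3.36% of 11623 genes.

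**Figure D4:**
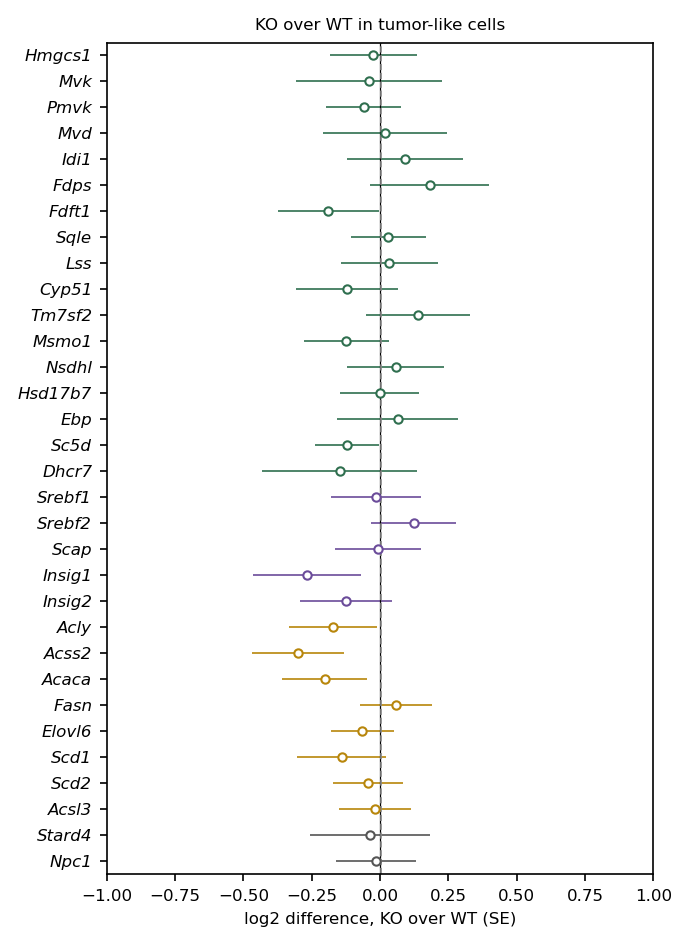
Log2 difference of KO over WT for each member in tumor-like cells with its standard error (edgeR, 10 libraries, batch as a covariate), beside the median of all genes as a dashed line. All 32 points are open, none having an adjusted p under 0.05, and they lie between -0.30 (Acss2) and 0.18 (Fdps).

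Over all cells 0 of 32 members were called (0% of 12450 genes, with 1102 genes and 0 members at an unadjusted p under 0.05 and 2 genes called by DESeq2), and differences ran from -0.32 (Insig1) to 0.12 (Fdps). In myeloid-like cells 2 members passed the limit on low counts and 0 were called (0% of 1239 genes, 55 at an unadjusted p under 0.05, 0 called by DESeq2). Srebf2, singled out after its values were seen, measured 72.6, 216, 209.7, 338 and 251 CPM in WT and 53.9, 84.6, 188, 173 and 195 CPM in KO. The KO libraries were the lower ones within each batch, but the share of all genes separated in this way is not given here. In batch 2 these levels rested on 91 UMIs of Srebf2 over 8 libraries, and WT 4 had 8881 UMIs of all genes in this class. The log2 difference of -0.49 ± 0.23 did not pass the adjustment (edgeR, adjusted p = 0.93), although its p was under 0.05 before it. Insig1 differed by -0.36 ± 0.23. In stromal-like cells 3 members passed the limit and 0 were called (0% of 1663 genes, 118 at an unadjusted p under 0.05, 0 called by DESeq2), with Srebf2 at -0.40 ± 0.27, Hmgcs1 at -0.31 ± 0.32 and Insig1 at 0.15 ± 0.24.

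Whether the genotype difference itself differed between tumor-like and immune-like cells was tested by an interaction term, and 0 of 32 members were called (0% of 12351 genes, 277 at an unadjusted p under 0.05, 0 called by DESeq2). The members under 0.05 before adjustment were Acss2 (-1.95 ± 0.85), Sqle (1.55 ± 0.64), Msmo1 (-1.18 ± 0.52) and Scd2 (-1.17 ± 0.56), each with an adjusted p of 1 in edgeR. Standard errors of the members ran from 0.25 to 1.33 on the log2 scale, so this comparison was the least precise. Of the further lists, 0 genes were called between WT and KO tumor-like cells.

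Within tumor-like cells of batch 2 the members were read over 8 clusters that had been made without them, as a description with no test. Insig1 was highest in cluster t0 (2069 CPM, mean of 8 libraries) and lowest in cluster t5 (436 CPM), in 8 of 8 libraries for either end. By library it measured 1796, 1910, 2528 and 2629 CPM in WT and 2220, 1831, 1639 and 1999 CPM in KO in cluster t0, whose leading genes are Gpc1, Notch2, Pdgfa and Insig1 itself among others. Cluster t1, led by F2r, Clu, Gapdh and ribosomal protein genes, had the highest mean of 18 of 32 members and of 29.9% of the 11623 genes tested in tumor-like cells. Among these members Idi1 (51.1 CPM) and Scd2 (149 CPM) were highest there in 8 of 8 libraries, Mvd, Fdps and Nsdhl in 7 and Fasn in 6.

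The sterol sum ran from 706 CPM in cluster t5 to 900.2 CPM in cluster t1, and the fatty acid sum from 368 CPM in cluster t0 to 560 CPM in cluster t1. Cluster t0 was thus highest for Insig1 and lowest for the fatty acid arm, and it had the lowest mean of 40.4% of all genes tested. Median UMIs per cell were 865 in cluster t0, 485 in cluster t1 and 423 in cluster t5, and the part of depth in these differences was not tested.

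**Figure D5:**
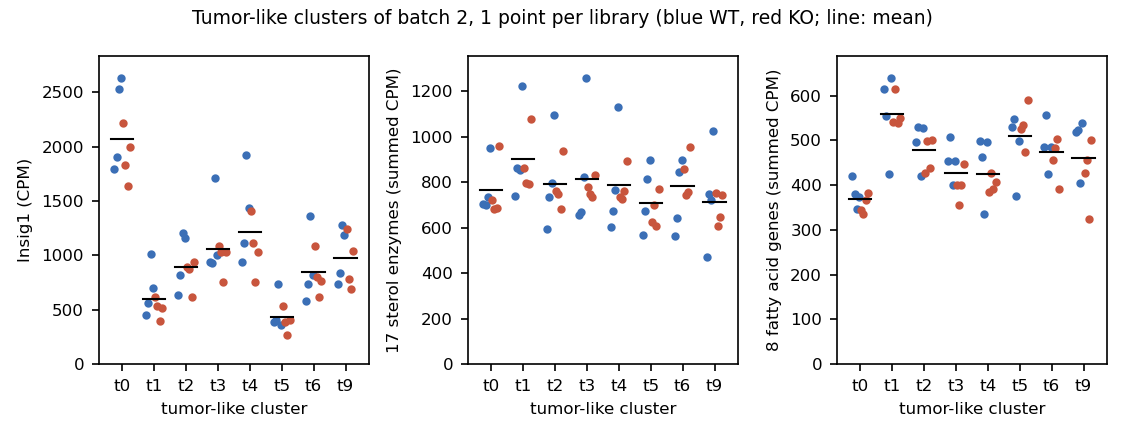
Levels of Insig1, of the 17 sterol enzymes and of the 8 fatty acid genes (CPM without Actb) in the 8 tumor-like clusters of batch 2, with 1 point per library, WT in blue and KO in red, and the mean as a line. Insig1 is highest in t0 (2069 CPM) and lowest in t5 (436 CPM). The fatty acid sum is lowest in t0 (368 CPM) and highest in t1 (560 CPM), with WT and KO points mixed in each cluster.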

How the data were processed

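E0771 tumors from both genotypes were profiled by 10x 3' v3 single-cell RNA-seq in 10 libraries. The authors deposited whole-number UMI counts per gene and barcode, made with Cell Ranger 7.1.0 on mm10 per the submitters' processing notes. A barcode counted as a cell when it had 200 to 7000 genes and no more than 10% of its UMIs from mt- genes. Groups were taken from the genotype and batch labels. Labels do not say that libraries were independent beyond separate tumors, so p-values measure the spread between these libraries.

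Cells were clustered with scanpy 1.11.5 (2000 variable genes without the members, 30 components, 15 neighbors, Leiden resolution 1). Clusters were named where at least 3 markers were raised 2-fold. These thresholds were set after the clusters were seen, and the names are rebuilt, not the authors'. No doublet caller was run. Batch 2 clusters outside the tumor-like ones were left out as mixed where Pvt1 reached 70% of its tumor-like level, and other clusters that also carried tumor-like markers were kept. UMIs were summed per library and class without Actb, in classes with at least 10 cells of a library. Sums were tested with edgeR 4.0.16 (quasi-likelihood, TMM, filterByExpr, R 4.3.3) with batch as a covariate for genotype and library as a block for class, an adjusted p under 0.05 being a call. DESeq2 1.42.0 was an alternative. The scripts were tested on simulated data. Free RNA was estimated from barcodes with at most 50 UMIs.

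The members and gene lists were chosen with earlier results of these data known. Values per library are given for the 3 members of each arm with the highest level in tumor-like cells, and for those with the 3 largest differences either way between tumor-like and immune-like cells and between genotypes. Other sample-level alternatives were other scalings, no filter on low counts, 1 batch alone, at least 500 genes per cell, and each library left out. The interval of a ratio of pooled levels covers counting error only. Standard errors of edgeR fits were derived as the absolute log2 difference divided by the square root of the test's F statistic. The intervals of genotype differences come from these standard errors.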

Additional observations from a re-analysis of the deposited data

Results flagged for a closer look

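The 14 members with values given per library, the 2 arm sums and their ratio were examined in tumor-like cells within each genotype. The other members were not examined. Of these 34 groups of 5 libraries, 5 held a library whose gap to its nearest neighbor exceeded 0.71 of the group's range. Chance marks about 1 in 20 groups of like libraries, but each group joined 1 library of batch 1 to 4 of batch 2, and 4 of the 5 libraries set apart were those of batch 1, so that share is no guide here. For Fdps this was the batch 1 library in WT (116.3 CPM, the others at 9.60 to 20.5 CPM) and in KO (137.1 CPM, the others at 10.6 to 21.9 CPM). For Fasn it was the batch 1 library of WT (59.75 CPM against 32.7 to 38.4 CPM), and for Sc5d the batch 1 library of KO (59.65 CPM against 104 to 116 CPM). For Msmo1 it was WT 5 of batch 2 (122.5 CPM against 69.8 to 84.2 CPM).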

How the results depend on the processing

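Between WT and KO, 0 members were called under every alternative run. The number of all genes called moved from 0 to 1 with DESeq2 and 38 without a filter in tumor-like cells, to 2 and 242 over all cells, to 14 without a filter, 3 with batch 2 alone, 1 with DESeq2 size factors and 1 with Actb kept in myeloid-like cells, and to 24 without a filter and 3 with batch 2 alone in stromal-like cells. For the interaction it was 2 with batch 2 alone. Leaving out 1 library gave 0 to 0 genes in tumor-like cells, 0 to 1 over all cells, 0 to 2 in myeloid-like cells, 0 to 3 in stromal-like cells and 0 to 8 for the interaction. Tumor-like against immune-like cells gave 3789 genes with at least 500 genes per cell, and 5872 to 6796 genes and 19 to 26 members without 1 library. Against stromal-like cells there were 2580 genes with DESeq2, 1949 genes and 11 members with at least 500 genes, 1807 genes and 6 members against endothelial-like cells alone, and 3423 to 4019 genes and 15 to 20 members without 1 library.

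Of single members between tumor-like and immune-like cells, 586 values kept their side of the threshold and direction, 35 lost and 12 gained the call, and 16 turned in sign. The sign turned for Srebf1 (-0.26) and Npc1 (0.31) against T-like cells alone, for Acss2 at Leiden resolution 0.5 (-0.0616), with free RNA subtracted (-0.0062), against T-like cells alone (-0.76) and without WT of batch 1 (-0.0771, the lowest of a range up to 0.53 without 1 library), and for Acly with DESeq2 size factors (-0.0399), batch 2 alone (-0.0362), Actb kept (-0.14), at least 500 genes (-0.17), the library block left out (-0.0686), free RNA subtracted (-0.28) and without 1 library (-0.0858 to 0.12). Against stromal-like cells 55 of the values followed kept their side and 8 lost the call. These were of Lss, and of Fasn and Scd2 against endothelial-like cells alone. Between genotypes Srebf2 turned without WT 1 (-0.00074, in a range up to 0.24 without 1 library). The causes were not tested.

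In tumor-like cells of batch 2, deviations of same-numbered libraries had r = -0.21 and -0.30, against -0.25 to 0.33 for libraries of unlike number. From 2 such pairs it cannot be told whether numbers mark paired mice, and they were not taken as pairs. With the replicate number as a block over 6 libraries, 0 members and 0 genes were called.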
